A study of Mus musculus with 12 samples.

Results

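The S100 family is a set of small calcium-binding proteins. The 8 members described here are S100a1, S100a4, S100a6, S100a8, S100a9, S100a10, S100a11 and S100a13, out of 22180 genes measured on a mouse gene array. They were chosen by name with earlier results of these data known, and are not the whole family. Each had 1 probe set annotated to it alone, and all 8 exceeded the filter on low values (log2 4.605) on all 12 arrays. Values are log2 RMA values, on which a difference of 1 is a doubling. Levels of different genes are not compared, since each probe set has its own response.

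S100 proteins carry calcium-binding helix-loop-helix motifs called EF hands, and most work as dimers. Calcium opens a surface through which they bind annexins, myosin, p53 and other targets inside the cell. S100a8 and S100a9 form calprotectin, a major cytosolic protein of neutrophils and monocytes that binds zinc and manganese and, once released, is recognised by Toll-like receptor 4 and the receptor Ager (RAGE). In blood cell development both genes are switched on as granulocytes and monocytes mature.

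Total RNA of sorted cells was measured from 6 leukaemias of the mouse, and all groups carry MLL-AF9, the fusion gene that drives a form of acute myeloid leukaemia. Leukaemias 73, 75 and 79 were labelled WT for Dnmt3b overexpression, and leukaemias 81, 83 and 85 were labelled as Dnmt3b knock-in. Each leukaemia gave 1 sample sorted as positive and 1 sorted as negative for c-kit, the receptor tyrosine kinase Kit that marks immature haematopoietic cells, which made 4 groups of 3 arrays. The series asks how overexpression of Dnmt3b, a de novo DNA methyltransferase, bears on these leukaemias. The labels give no strain, age or sex, and do not say what drives the Dnmt3b allele or whether the leukaemia numbers stand for different mice. Titles and descriptions name bone marrow and the source field names leukemic spleen, so the tissue is not settled. Where leukaemias share a mouse or a culture, p-values measure a spread that is in part technical.

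The labels were checked first. Kit followed the sort, at 7.88 to 8.34 on the c-kit-positive arrays and 6.47 to 6.87 on the c-kit-negative arrays. Dnmt3b did not follow its label. Averaged over both arrays it measured 6.46, 6.39 and 6.22 in the leukaemias labelled wild type. It measured 6.32, 6.36 and 6.48 in those labelled knock-in, a difference of 0.03 (95% confidence interval -0.19 to 0.25, limma adjusted p = 0.964). Every direction between genotypes given here is therefore between leukaemias labelled knock-in and leukaemias labelled wild type. Array medians were 5.56 to 5.71. Leukaemia 81 stood apart in Xist, at 6.30 on its c-kit-positive and 6.27 on its c-kit-negative array. The arrays of the other leukaemias were at 9.83 or more. The c-kit-negative array of leukaemia 81 had a mean B cell marker level of 6.90 against 6.03 to 6.26 elsewhere. Both arrays of each leukaemia, 81 included, were left out in turn as a check.

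All 8 members lie on chromosome 3 of the mouse. In the RefSeq gene order of GRCm38.p6, S100a1, S100a13, S100a4, S100a6, S100a8 and S100a9 fall within an unbroken run of 12 protein-coding genes that are all S100 genes. S100a11 and S100a10 are next to each other after 56 further protein-coding genes. S100a8 and S100a9 are immediate neighbours, and S100a4 and S100a6 are separated by 1 gene. The array build is not given in the sources used here, so the coordinates are those of the RefSeq table and place the promoter, not the probe sets.

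Promoter sequences are shown for 4 members that stand close together. Whether members differ from each other in how they follow the sort or the genotype label was not tested. Each line gives the 250 bases before the annotated start, 5′ to 3′ on the strand of the gene. Capitals mark TATAAA (the TATA box sequence), TTGCNNAA (a form of the C/EBP site) and GAGGAA (the core of PU.1 sites), or their reverse complements. S100a8 lies at chr3:90668821-90669070 (+), S100a9 at chr3:90695722-90695971 (-), S100a6 at chr3:90612644-90612893 (+) and S100a4 at chr3:90603520-90603769 (+).
S100a8: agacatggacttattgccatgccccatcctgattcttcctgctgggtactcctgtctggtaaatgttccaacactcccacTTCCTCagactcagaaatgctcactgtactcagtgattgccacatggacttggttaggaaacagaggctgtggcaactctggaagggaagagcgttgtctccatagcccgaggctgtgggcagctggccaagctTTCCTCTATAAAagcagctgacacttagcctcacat
S100a9: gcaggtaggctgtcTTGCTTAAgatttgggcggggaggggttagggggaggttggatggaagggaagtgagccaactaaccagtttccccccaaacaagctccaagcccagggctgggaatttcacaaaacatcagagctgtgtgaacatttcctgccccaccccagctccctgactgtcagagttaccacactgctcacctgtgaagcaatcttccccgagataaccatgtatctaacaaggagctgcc
S100a6: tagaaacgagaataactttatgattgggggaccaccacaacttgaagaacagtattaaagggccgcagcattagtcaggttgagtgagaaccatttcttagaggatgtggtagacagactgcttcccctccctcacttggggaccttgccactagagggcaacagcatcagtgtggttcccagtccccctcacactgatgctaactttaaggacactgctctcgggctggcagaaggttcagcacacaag
S100a4: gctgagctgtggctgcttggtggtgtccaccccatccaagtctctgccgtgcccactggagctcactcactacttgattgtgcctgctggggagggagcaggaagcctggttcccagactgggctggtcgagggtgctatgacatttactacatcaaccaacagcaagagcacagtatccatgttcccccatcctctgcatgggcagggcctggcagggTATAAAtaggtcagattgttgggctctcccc
RefSeq promoters were found for 7 of the 8 members, and S100a10 had none. The motifs were searched on both strands of windows running from 250 bases before to 50 bases after the start. TATAAA was present in 13.6% of 32851 promoters of this length, TTGCNNAA in 10.8% and GAGGAA in 28.3%. S100a8 had TATAAA 30 to 25 bases before the start and S100a4 had it 31 to 26 bases before. On the gene strand and 16 to 40 bases before the start, TATAAA was found in 1.99% of all promoters. In S100a9 the same letters stood at bases 1 to 6 counted from the annotated start, beyond the stretch printed above. S100a8 held GAGGAA, read as TTCCTC on the gene strand, 170 to 165 and 36 to 31 bases before the start, the latter directly beside TATAAA. S100a9 held TTGCTTAA 236 to 229 bases before the start, S100a11 held GAGGAA 153 to 148 bases before it, and S100a4 held TTCCTC at bases 20 to 25 after it. The windows of S100a1, S100a6 and S100a13 held none of the 3 motifs. The number of CG dinucleotides, the bases that Dnmt3b methylates, was 2 in S100a4 and S100a9, 4 in S100a8, 6 in S100a6, 11 in S100a1, 14 in S100a13 and 15 in S100a11, against a median of 7 over all promoters (quartiles 3 and 20). These are descriptions of letters, and no binding or methylation was measured here.

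Counts over the 8 members set the frame for single genes. Because the members were chosen with earlier results of these data known, the shares beside these counts are not a test of the family. Between c-kit fractions over both genotypes, 4 of the 8 members passed an adjusted p of 0.05, against 8.25% of the 19152 genes tested. S100a4, S100a6 and S100a10 were lower in c-kit-positive cells (2.41% of genes were lower) and S100a1 was higher (5.84% were higher). Of 10 other genes with an S100 name, 8 were tested and 0 passed in this comparison. Within the wild-type leukaemias 1 member, S100a6, passed, against 0.768% of genes, and within the knock-in leukaemias 1 member, again S100a6, passed, against 1.88%. With the leukaemia as a replicate block, which compares both fractions within each leukaemia, 6 members passed in the wild-type leukaemias, 3 in the knock-in leukaemias and 6 over both. That block raised the number of called genes from 147 to 2109 in the wild-type leukaemias, from 360 to 1666 in the knock-in leukaemias and from 1580 to 3758 over both. Between genotypes in c-kit-positive cells 1 member, S100a8, passed, against 0.141% of genes. In c-kit-negative cells 0 of 8 passed by limma (0.0627% of genes), and over both fractions 0 of 8 passed (0.0261% of genes). At an unadjusted p under 0.05, limma listed 4 of 8 members between genotypes over both fractions, against 8.37% of genes, and 3 of 8 in c-kit-negative cells, against 6.1%. The median difference of the members between fractions was -0.54, against -0.03 over all genes tested, and between genotypes over both fractions it was 0.21, against 0.01.

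**Figure D1:**
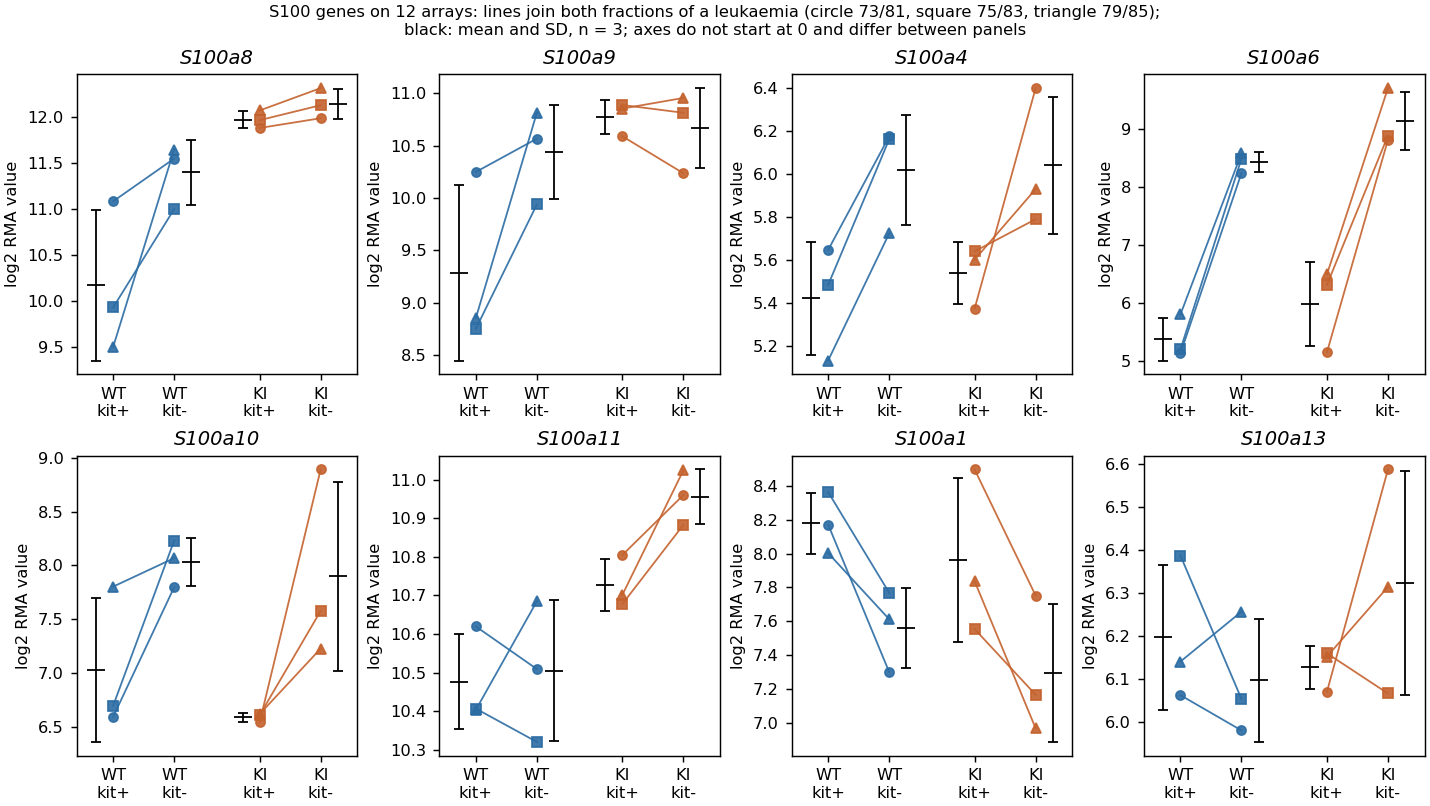
Log2 RMA values of the 8 S100 members (one panel each, vertical axis in log2) in every array, by genotype label and c-kit fraction (horizontal axis), where each line joins both fractions of a leukaemia and black marks give the mean and SD of 3 arrays. For S100a8 the 3 wild-type c-kit-positive arrays (9.50 to 11.08) lie below the 3 knock-in c-kit-positive arrays (11.88 to 12.07), and for S100a6 all c-kit-positive arrays lie below all c-kit-negative ones.

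In c-kit-positive cells, S100a8 was 3.49-fold higher in knock-in than in wild-type leukaemias, and its partner S100a9 lay 2.81-fold above without passing the test. S100a8, which encodes a subunit of calprotectin, measured 11.08, 9.93 and 9.50 in the c-kit-positive cells of wild-type leukaemias 73, 75 and 79. In the c-kit-positive cells of knock-in leukaemias 81, 83 and 85 it measured 11.88, 11.97 and 12.07. The groups did not overlap, and the wild-type values were spread widely, with leukaemia 73 closest to the knock-in group, while the knock-in values lay close together. The difference was 1.80 (SE 0.302, 95% interval 1.15 to 2.45), with an adjusted p of 0.0417 by limma. In this comparison 3 of 8 members (S100a8, S100a9 and S100a11) did not overlap and were higher in knock-in leukaemias, where 7.56% of genes did so. The call is close to the threshold. The adjusted p was 0.0579 with the arrays centred on their medians, 0.0516 with the mean of all probe sets of each gene, and 0.0568 with the c-kit-positive arrays fitted alone. Without leukaemia 75, 79, 83 or 85 it was 0.271, 0.185, 0.284 or 0.103. The difference stayed between 1.47 and 2.26 in all 12 alternatives run, and 5 of them gave the call.

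S100a8 measured 11.55, 10.998 and 11.65 in wild-type c-kit-negative cells. In knock-in c-kit-negative cells the values were 11.99, 12.13 and 12.31. These groups also did not overlap. The difference of 0.75 (95% interval 0.09 to 1.40) did not pass, with a limma adjusted p of 0.788, and 3 of 8 members (S100a6, S100a8 and S100a11) did not overlap and were higher, against 4.22% of genes. The order of the group means was 10.17 ± 0.819 (SD, n = 3) in wild-type c-kit-positive cells, 11.40 ± 0.349 in wild-type c-kit-negative cells, 11.97 ± 0.0952 in knock-in c-kit-positive cells and 12.14 ± 0.164 in knock-in c-kit-negative cells. The last pair differed by 0.17 (95% interval -0.48 to 0.82), an interval that uses the spread of all 4 groups. Within knock-in leukaemias 81, 83 and 85 the c-kit-positive minus c-kit-negative differences were -0.11, -0.16 and -0.24. For this pair 0 of 12 alternatives gave a call.

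S100a9, the partner subunit, measured 10.25, 8.75 and 8.85 in wild-type c-kit-positive cells and 10.59, 10.89 and 10.85 in knock-in c-kit-positive cells. Leukaemia 73 was well above the other wild-type leukaemias, as for S100a8, and lay just below the lowest knock-in array. The difference of 1.49 (SE 0.340, 95% interval 0.76 to 2.23) did not pass, with a limma adjusted p of 0.136. Without leukaemia 73 it passed, with a limma adjusted p of 0.0227, the 1 call among 12 alternatives. Over these alternatives the limma adjusted p ran up to 0.560 (without leukaemia 75), and the difference stayed between 1.22 and 1.97. In c-kit-negative cells the wild-type leukaemias measured 10.57, 9.94 and 10.81 for S100a9, and the knock-in leukaemias 10.24, 10.81 and 10.95. These values overlapped, and the difference was 0.23 (95% interval -0.51 to 0.96). Group means were 9.29 ± 0.835 in wild-type c-kit-positive cells, 10.44 ± 0.451 in wild-type c-kit-negative cells, 10.67 ± 0.380 in knock-in c-kit-negative cells and 10.78 ± 0.163 in knock-in c-kit-positive cells (SD, n = 3 each), and the last 3 overlapped one another.

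Averaged over both fractions, the calprotectin genes did not overlap between genotypes and did not pass the test. The leukaemia means of S100a8 were 11.32, 10.46 and 10.57 in wild-type and 11.93, 12.05 and 12.19 in knock-in leukaemias. The difference was 1.27 (SE 0.205, 95% interval 0.80 to 1.74), with an adjusted p of 0.143 by limma and an exact two-sided permutation p of 0.1, the smallest that 3 against 3 allows. Without leukaemia 73 the limma adjusted p was 0.00874, the 1 call among 11 alternatives. Without leukaemia 75, 79, 83 or 85 the limma adjusted p was 0.533, 0.425, 0.513 or 0.154. The leukaemia means of S100a9 were 10.41, 9.35 and 9.83 in wild-type and 10.41, 10.85 and 10.90 in knock-in leukaemias. Its difference was 0.86 (95% interval 0.29 to 1.43), with a limma adjusted p of 0.385 and an exact permutation p of 0.1. The lowest knock-in leukaemia, 81, was at 10.413 and the highest wild-type leukaemia, 73, at 10.407, so S100a9 barely separated the groups. S100a8, S100a9 and S100a11 were the 3 of 8 members that did not overlap and were higher here, against 5.52% of genes.

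**Figure D2:**
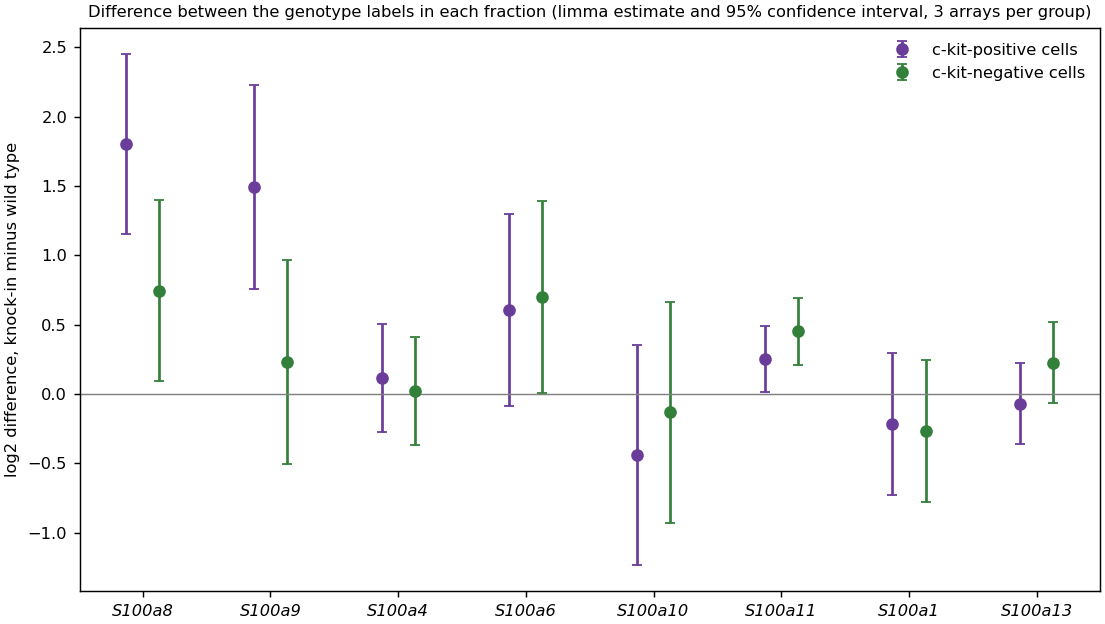
Differences between knock-in and wild-type leukaemias (log2, vertical axis) for the 8 members (horizontal axis) in c-kit-positive and in c-kit-negative cells, with points for limma estimates and bars for 95% confidence intervals, 3 arrays per group. The interval of S100a8 in c-kit-positive cells runs from 1.15 to 2.45, and those of S100a4 and S100a13 include 0 in both fractions.

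The c-kit-positive value of S100a8 was below the c-kit-negative value in all 6 leukaemias, while that of S100a9 was below in 4. The c-kit-positive minus c-kit-negative differences of S100a8 were -0.47, -1.07 and -2.15 for wild-type leukaemias 73, 75 and 79. For knock-in leukaemias 81, 83 and 85 they were -0.11, -0.16 and -0.24. S100a9 had differences of -0.32, -1.18 and -1.96 for the wild-type and 0.35, 0.07 and -0.10 for the knock-in leukaemias. For S100a8, all 3 wild-type gaps exceeded all 3 knock-in gaps in size, and the share of all genes that do so was not counted. For S100a9 the knock-in values lay on both sides of 0. In wild-type leukaemias the mean differences were -1.23 (SE 0.302) for S100a8 and -1.15 (SE 0.340) for S100a9, with limma adjusted p of 0.0827 and 0.125. With the leukaemia as a block both passed, at limma adjusted p of 0.00665 and 0.00847. For each gene this was the 1 call among 12 alternatives, and the block was the 1 alternative that paired the fractions of a leukaemia. Over both genotypes S100a8 was at -0.70 (adjusted p = 0.0633, 0.00876 with the block and 0.0117 without leukaemia 73) and S100a9 at -0.52 (0.212, and 0.0370 with the block). Of 11 alternatives 3 called S100a8, with differences from -0.89 to -0.47 and limma adjusted p up to 0.225. For S100a9 1 of 11 gave the call, and the limma adjusted p ran up to 0.553. In knock-in leukaemias the differences were -0.17 (95% interval -0.82 to 0.48) and 0.11 (95% interval -0.63 to 0.84). The difference between genotypes of this gap, tested as an interaction, was 1.06 (SE 0.427, 95% interval 0.14 to 1.98) for S100a8 and 1.26 (SE 0.481, 95% interval 0.22 to 2.30) for S100a9. Without leukaemia 79, which had the widest gap, the S100a8 value was 0.60. Unadjusted limma p-values were 0.0277 and 0.0211, and neither passed after adjustment (0.99995 for both genes, and 0.750 and 0.692 with the block). For the interaction 0 of 19152 genes passed in limma (0%), and 427 (2.23%) had an unadjusted p under 0.05.

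Of 12 markers of late neutrophils, 2 (Ltf and Ly6g) were higher in knock-in than wild-type c-kit-positive cells, where 0.141% of genes were called, with a list median of 0.90. Ltf, the granule protein lactoferrin, was higher by 2.48 (limma adjusted p = 0.0071) and Ly6g, a surface protein of mature neutrophils, by 2.09 (0.0071). The mean level of the list was 7.65 to 8.18 in wild-type and 8.54 to 8.91 in knock-in c-kit-positive cells, and 8.66 to 9.34 and 9.81 to 10.1 in the c-kit-negative cells. Of 9 monocyte and macrophage markers tested, 1 (Lyz2, lysozyme) was higher in knock-in c-kit-positive cells, by 1.29, with a list median of -0.16. The list mean was 7.25 to 7.53 in wild-type and 7.21 to 7.44 in knock-in c-kit-positive cells. In c-kit-negative cells 3 of the 12 late neutrophil markers (Ltf, Ly6g and Cxcr2) were higher in knock-in leukaemias, where 0.0627% of genes were called, with a list median of 0.86. Of 6 primary granule, 5 B cell, 6 T and NK cell, 3 erythroid and 5 mast cell and basophil markers tested, 0 passed between genotypes in either fraction. In bulk samples, more cells of a type and more RNA per cell cannot be told apart, and the part of these markers in the S100a8 result was not tested.

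S100a6 was 8.60-fold lower in c-kit-positive cells, the widest c-kit difference of the 8 members. S100a6, or calcyclin, binds annexins and the calcyclin-binding protein Cacybp and is known from proliferating and differentiating cells. It measured 5.13, 5.20 and 5.80 in the c-kit-positive cells of leukaemias 73, 75 and 79, against 8.24, 8.49 and 8.58 in their c-kit-negative cells. In leukaemias 81, 83 and 85 it measured 5.15, 6.31 and 6.49 in c-kit-positive cells, against 8.81, 8.88 and 9.70 in c-kit-negative cells. All 6 c-kit-positive arrays lay below all 6 c-kit-negative arrays, as they did for 2 of 8 members (S100a4 and S100a6), where 1.26% of genes did so. Over both genotypes the difference was -3.10 (SE 0.227, 95% interval -3.60 to -2.61), with a limma adjusted p of 1.57e-05. It was -3.06 (SE 0.321) in wild-type and -3.15 (SE 0.321) in knock-in leukaemias, with adjusted p of 0.00145 and 0.000461. Without leukaemia 73 the wild-type value was -3.03 and its adjusted p 0.0564. Each leukaemia showed the same direction, with differences from -2.57 (leukaemia 83) to -3.67 (leukaemia 81), and the exact sign-flip permutation p was 0.03125, the smallest that 6 leukaemias allow. The interaction was -0.09 (95% interval -1.07 to 0.89).

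Between genotypes the S100a6 difference was 0.65 over both fractions (SE 0.256), with a limma adjusted p of 0.538. In c-kit-negative cells the groups did not overlap, and the difference of 0.70 (95% interval 0.01 to 1.39) did not pass (adjusted p = 0.816). In c-kit-positive cells leukaemia 81 was as low as the wild-type leukaemias, and the difference was 0.61 (95% interval -0.08 to 1.30). It was 1.03 without leukaemia 81 (adjusted p = 0.0780) and 0.35 without leukaemia 85.

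S100a4, or metastasin, binds non-muscle myosin and is tied to cell motility. It measured 5.65, 5.49 and 5.13 in c-kit-positive and 6.17, 6.16 and 5.72 in c-kit-negative cells of leukaemias 73, 75 and 79. In leukaemias 81, 83 and 85 it measured 5.38, 5.64 and 5.603 in c-kit-positive and 6.40, 5.79 and 5.93 in c-kit-negative cells. The fractions did not overlap in either genotype. Within wild-type leukaemias 3 of 8 members did not overlap between fractions (S100a1, S100a4 and S100a6), against 27.7% of genes, and within knock-in leukaemias 4 of 8 (S100a4, S100a6, S100a10 and S100a11), against 13.6%. The S100a4 difference over both was -0.55 (SE 0.128), a 1.46-fold lower level in c-kit-positive cells, with a limma adjusted p of 0.0197. Leukaemia 81 had the largest difference, and without it the value was -0.42 (adjusted p = 0.0449). Without leukaemia 73 or 75 the adjusted p was 0.0622 or 0.107. Within wild-type leukaemias S100a4 was at -0.60 (adjusted p = 0.132, and 0.0214 with the leukaemia as a block). Between genotypes it differed by 0.07 over both fractions (95% interval -0.23 to 0.37).

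**Figure D3:**
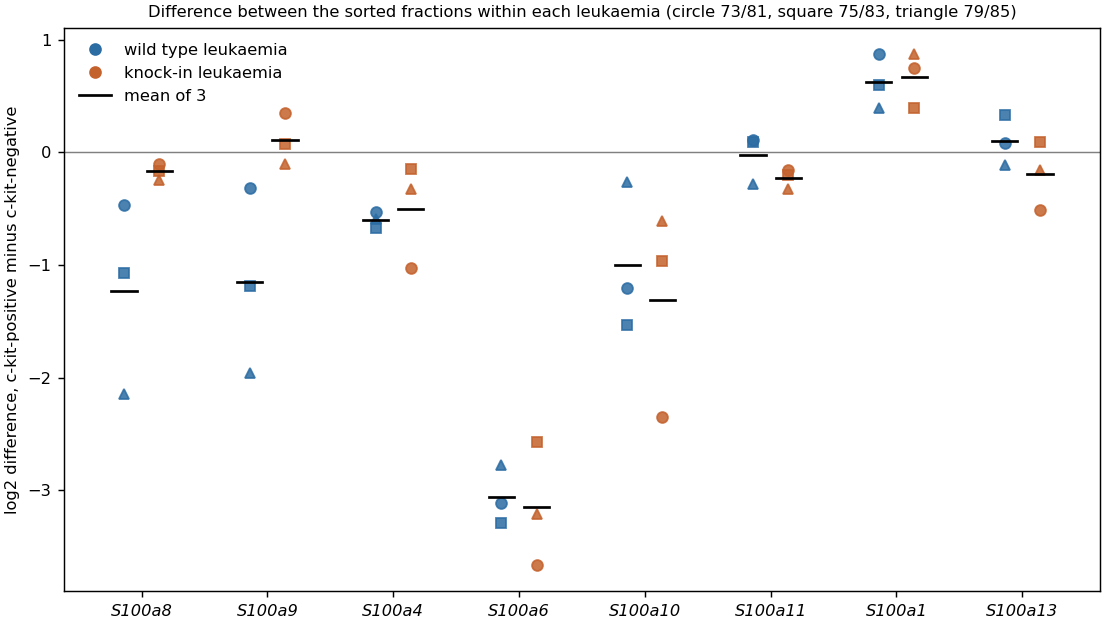
Differences between c-kit-positive and c-kit-negative cells of the same leukaemia (log2, vertical axis) for each member, with 1 point per leukaemia coloured by genotype label and a black line at the mean of 3. S100a6 lies between -3.67 and -2.57 in all 6 leukaemias, and S100a1 lies above 0 in all 6. S100a8 shows larger gaps in leukaemias 73, 75 and 79 than in 81, 83 and 85, a difference that did not pass as an interaction.

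Of S100a10 and S100a11, which bind annexins, only S100a10 was called between fractions over both genotypes. They were not tested against each other. S100a10, or p11, has lost calcium binding and holds annexin A2 in a complex that serves as a plasminogen receptor at the cell surface. It measured 6.60, 6.70 and 7.80 in c-kit-positive and 7.80, 8.23 and 8.07 in c-kit-negative cells of leukaemias 73, 75 and 79. In leukaemias 81, 83 and 85 it measured 6.54, 6.61 and 6.62 in c-kit-positive and 8.89, 7.58 and 7.23 in c-kit-negative cells. The c-kit-positive cells of leukaemia 79 stood above the other c-kit-positive arrays, and the c-kit-negative cells of leukaemia 81 above all other arrays. All 6 leukaemias had less S100a10 in c-kit-positive cells, with differences of -2.35 to -0.26. The difference over both genotypes was -1.15 (SE 0.260), a 2.22-fold lower level, with a limma adjusted p of 0.0168. Without leukaemia 81 it was -0.89 (adjusted p = 0.0176), and without leukaemia 73, 75 or 83 the adjusted p was 0.0777, 0.119 or 0.0607. Within one genotype S100a10 did not pass, at -0.9997 (adjusted p = 0.210) in wild-type and -1.31 (adjusted p = 0.101) in knock-in leukaemias. The knock-in value was -0.79 without leukaemia 81 (adjusted p = 0.268). With the leukaemia as a block the adjusted p was 0.0454 and 0.0144.

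S100a11, or calgizzarin, binds annexin A1. It measured 10.62, 10.41 and 10.40 in c-kit-positive and 10.51, 10.32 and 10.68 in c-kit-negative cells of leukaemias 73, 75 and 79. In leukaemias 81, 83 and 85 it measured 10.80, 10.68 and 10.70 in c-kit-positive and 10.96, 10.88 and 11.02 in c-kit-negative cells. Knock-in values were above wild-type values in both fractions. In c-kit-negative cells S100a11 was above wild type by 0.45 (SE 0.111, 95% interval 0.21 to 0.69, adjusted p = 0.428), and over both fractions by 0.35 (SE 0.0898, 95% interval 0.15 to 0.56, adjusted p = 0.330). Neither passed in limma, and the exact permutation p over both fractions was 0.1. Between fractions it differed by -0.13 (95% interval -0.30 to 0.04). A processed copy, S100a11-ps, has its own probe set, which measured 6.97 to 7.65, and signal from near-identical copies cannot be told apart from S100a11 here.

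Several annexins and partners of these proteins were also lower in c-kit-positive cells. Of 13 annexins and other binding partners, 11 were tested and Anxa11 and Trp53 were not analysed here. Between fractions over both genotypes, 6 of the 11 were lower and 0 higher in c-kit-positive cells, where 2.41% of all genes tested were lower and 5.84% higher. Their median was -0.58, against -0.03 over all genes. Anxa1, the annexin bound by S100a11, was at -1.21 (adjusted p = 5.93e-05) and Anxa2, the S100a10 partner, at -0.58 (0.00275). Ahnak, a scaffold of the annexin A2 and S100a10 complex, was at -0.99 (0.00282), and Plaur, the urokinase receptor of the plasminogen system, at -1.02 (0.00484). The other two, Anxa5 and Anxa6, were at -0.76 (0.0247) and -0.77 (0.0472) and are named after their values were seen. Cacybp, the S100a6 partner, was among those that did not pass. Within the wild-type leukaemias Anxa1 and Ahnak passed, and within the knock-in leukaemias Anxa1 and Plaur, all lower in c-kit-positive cells. Between genotypes 0 of 11 passed in either fraction or over both. Of all genes tested, 0.141% passed in c-kit-positive cells, 0.0627% in c-kit-negative cells and 0.0261% over both fractions. Anxa5, with the smallest p, differed by -0.54 over both fractions (limma adjusted p = 0.456).

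**Figure D4:**
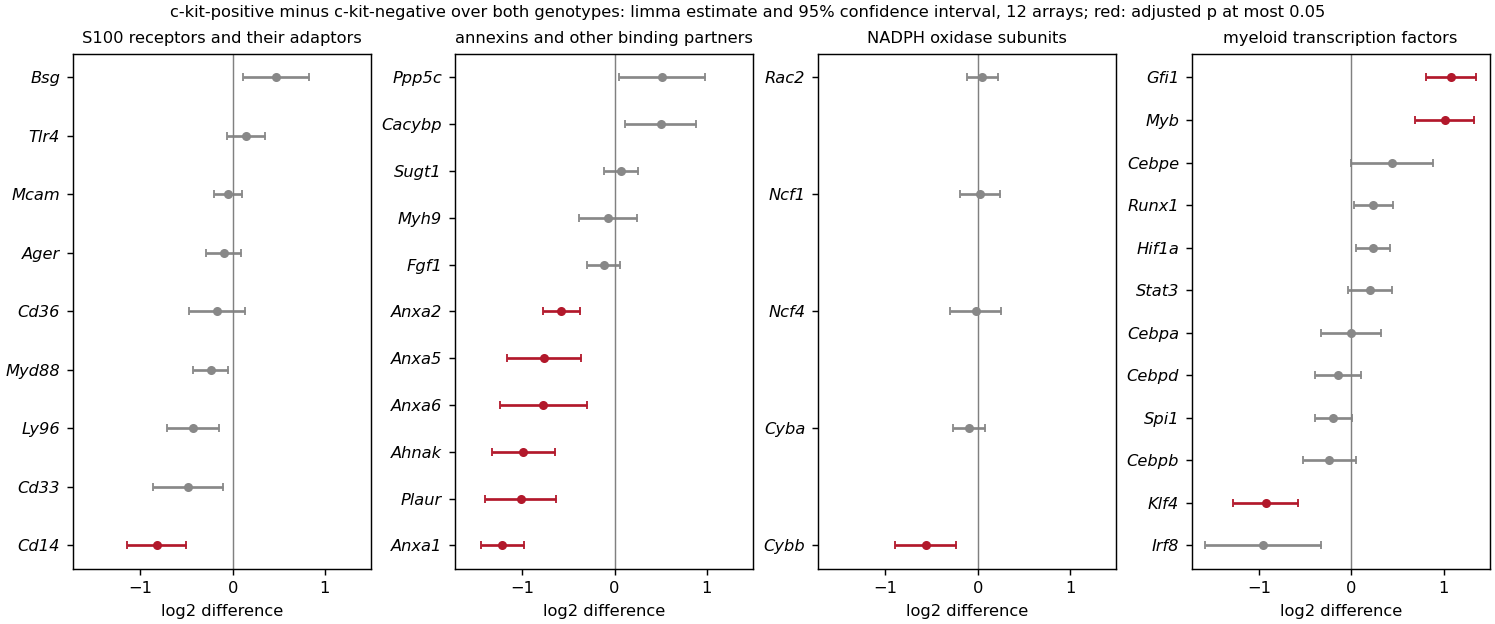
Differences between c-kit-positive and c-kit-negative cells over both genotypes (log2, horizontal axis) for the genes of 4 lists (one panel each): receptors, binding partners, oxidase subunits and transcription factors. Points are limma estimates over 12 arrays with 95% confidence intervals, red where the adjusted p is at most 0.05, and Anxa1 at -1.21 and Gfi1 at 1.08 stand on opposite sides of 0.

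Receptors and their adaptors gave fewer calls. Of 9 tested, Cd14, the co-receptor of Toll-like receptor 4, was lower in c-kit-positive cells (-0.82, limma adjusted p = 0.00541), and 0 were higher. Of all genes tested between fractions over both genotypes, 2.41% were called lower and 5.84% higher. Ly96, the Toll-like receptor 4 adaptor, was at -0.43 (adjusted p = 0.0638) and Bsg, a receptor for S100a9, at 0.47 (0.104). Between genotypes 0 of 9 passed in either fraction or over both, where at most 0.141% of all genes tested did. Cd33, an S100a9 receptor of myeloid cells, was at -0.45 over both fractions (limma adjusted p = 0.650). Calprotectin delivers arachidonic acid to the phagocyte NADPH oxidase. Of 5 oxidase subunits tested, Cybb, the catalytic subunit, was lower in c-kit-positive cells (-0.56, adjusted p = 0.0397). Between genotypes the Cybb difference over both fractions was 0.94 and did not pass (adjusted p = 0.222).

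Among 12 transcription factors of myeloid cells, Gfi1, a repressor in granulocyte progenitors, was higher in c-kit-positive cells by 1.08 (limma adjusted p = 0.00034) and Myb, a factor of immature cells, by 1.01 (0.00175). Klf4, which supports monocyte development, was lower (-0.93, 0.00455). The other 9 did not pass. Among all genes tested between these fractions, 5.84% were called higher and 2.41% lower. Between genotypes 0 of 12 passed in either fraction or over both, where at most 0.141% of all genes tested did. Cebpa, which drives granulocyte differentiation, was at -0.50 over both fractions (limma adjusted p = 0.495). Of 10 other genes with an S100 name, among them S100pbp, which encodes an S100-binding protein, 8 were tested and 0 passed in any comparison. S100a7l2 and S100a16 had the smallest p between fractions over both genotypes, at -0.32 (adjusted p = 0.130) and -0.12 (0.364). S100a5, at 3.68 to 4.03, exceeded the filter value on 0 arrays and S100g, at 4.33 to 4.67, on 2 arrays, below the 3 required.

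S100a1 alone among the members was called higher in c-kit-positive than c-kit-negative cells, by 1.56-fold. S100a1 is best known for binding the sarcoplasmic calcium pump and the ryanodine receptor in heart muscle. It measured 8.17, 8.36 and 8.004 in c-kit-positive and 7.30, 7.77 and 7.61 in c-kit-negative cells of leukaemias 73, 75 and 79. In leukaemias 81, 83 and 85 it measured 8.499, 7.55 and 7.84 in c-kit-positive and 7.75, 7.16 and 6.97 in c-kit-negative cells. The c-kit-positive value was the higher one in all 6 leukaemias, by 0.39 to 0.87. A c-kit difference of one sign in all 6 leukaemias was found for 5 of the 8 members (S100a1 higher, and S100a4, S100a6, S100a8 and S100a10 lower), against 21.9% of genes. Over both genotypes S100a1 was 0.64 higher (SE 0.168), with an adjusted p of 0.0328 by limma. Without leukaemia 73, 75, 79, 83 or 85 it was 0.148, 0.119, 0.0717, 0.0610 or 0.0708. Within one genotype it was at 0.62 (adjusted p = 0.226, and 0.0396 without leukaemia 81) in wild-type and at 0.67 (0.218) in knock-in leukaemias. With the leukaemia as a block S100a1 passed within wild-type (0.0085) and within knock-in leukaemias (0.00506). Between genotypes it differed by -0.24 (95% interval -0.70 to 0.21), by -0.49 without leukaemia 81 (adjusted p = 0.0936) and by -0.11 without leukaemia 83.

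S100a13, which helps to release fibroblast growth factor 1, did not differ beyond its spread. It measured 6.06, 6.39 and 6.14 in c-kit-positive and 5.98, 6.05 and 6.26 in c-kit-negative cells of leukaemias 73, 75 and 79. In leukaemias 81, 83 and 85 it measured 6.07, 6.16 and 6.15 in c-kit-positive and 6.59, 6.07 and 6.31 in c-kit-negative cells. All 4 groups overlapped. The difference between fractions was -0.05 (95% interval -0.26 to 0.16) and between genotypes 0.08 (95% interval -0.14 to 0.30). S100a13 lies head to head with S100a1, and the 2 genes correlated at r = 0.03 over the 12 arrays and at 0.383 once the group means were removed.

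Many markers of maturation were called between the same fractions, where 2.41% of all genes were lower and 5.84% higher. In c-kit-positive cells, 7 of 12 late neutrophil markers were lower over both genotypes (median -0.91), 5 of 9 monocyte and macrophage markers were lower (median -0.48), and 6 of 6 primary granule markers were higher (median 1.53). Mmp8, a neutrophil collagenase, was at -3.06 and Fn1, fibronectin, at -3.59. Mpo, myeloperoxidase of immature granulocytes, was higher by 2.85. Of 5 B cell markers Ighm was lower, with the highest mean of these markers on the c-kit-negative array of leukaemia 81, of 5 mast cell and basophil markers Mcpt8 was higher, and 0 of 6 T and NK cell and 0 of 3 erythroid markers passed. The part of these markers in the S100 differences was not tested.

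Genes most like each member were named by Pearson correlation over the 12 arrays, which share 6 leukaemias, so these are descriptions without tests. S100a8 was closest to Itgb2l (r = 0.976), S100a9 (0.950) and Olfr1388 (0.915), and S100a9 to Ngp (0.967), Itgb2l (0.952) and S100a8. Rank correlations (Spearman) were lower, at 0.895, 0.804 and 0.720 for S100a8 with Itgb2l, S100a9 and Olfr1388. They were 0.944 and 0.650 for S100a9 with Ngp and Itgb2l. Itgb2l is an integrin subunit gene and Ngp a neutrophil granule protein gene. After the group means were removed, S100a8 and S100a9 still correlated at 0.926. S100a6 was closest to Marchf1 (0.972), Mmp8 (0.960) and Camk1d (0.956), and those values fell to 0.722, 0.413 and 0.563 once the group means were removed. S100a10 was closest to Slc9a9 (0.969), Ly96 (0.956) and Sgpl1 (0.948), and S100a4 to Stxbp6 (0.945), Phf11b (0.921) and Nxpe4 (0.918). S100a1 was closest to Slc39a9 (0.963), Fbxo22 (0.960) and Uck1 (0.959), and it ran opposite to S100a6 (r = -0.849, and -0.722 without the group means). S100a11 was closest to Fmo5 (0.914), Ltf (0.893) and Vmo1 (0.889), which without the group means were at 0.627, 0.549 and 0.959, and S100a13 to Bdh2 (0.870), Col11a2 (0.856) and Tubb4a (0.848).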

How the data were processed

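Gene expression was measured on 12 Affymetrix arrays from 6 leukaemias. Per the submitters' processing notes, the authors made the deposited log2 values with RMA in Affymetrix Expression Console (versions not given in the sources used here), and they were used as deposited. Of 41345 probe sets, 23521 had 1 gene symbol in the platform annotation, 1814 had several and 16010 were not listed. Where a gene had several probe sets, that with the highest mean stood for it, giving 22180 genes. The deposited table held 0 columns of other samples. Genes above log2 4.605, the 25th percentile, on at least 3 arrays were tested (19152; 3028 removed).

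A limma model (3.58.1, R 4.3.3, statmod 1.5.0) with 4 group means was fitted to the 12 arrays, and leukaemia means were compared for the genotype over both fractions. Tests were two-sided, adjusted by Benjamini-Hochberg over all tested genes, with a threshold of 0.05, and the code was tested on simulated data. Exact permutations used Python 3.11.15 and scipy 1.17.1. Both arrays of a leukaemia share its number in the labels and correlated at 0.279 to 0.601 after group means were removed, so the numbers pair the fractions, and a fit with the leukaemia as a replicate block was run beside the main one. Other alternatives were array centring, repeated quantile normalization, no filter, the mean of all probe sets, the compared groups alone and leaving out each leukaemia.

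The members and gene lists were chosen with earlier results of these data known. Named genes were the 8 members, Dnmt3b and Kit, from each list the genes past the threshold (beyond 4, the 4 with the smallest p; where none passed, at most 2), and for each member the 3 named genes with the highest correlation. Some genes were named outside this rule, among them Ly96, Bsg, Cacybp, Anxa5 and Anxa6. The number of arrays limits the precision. RefSeq promoters of GRCm38.p6 were searched for 3 motifs.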

Additional observations from a re-analysis of the deposited data

How the results depend on the processing

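Of the members' differences, 593 values over all comparisons and alternatives kept their direction and side of the threshold, 18 lost and 15 gained the call, and 22 changed sign, none of them called. The count of members past the threshold between fractions moved from 1 to 3 in knock-in and from 1 to 6 in wild-type leukaemias with the leukaemia as a replicate block, and to 2 in wild-type leukaemias when those arrays were fitted alone. The block changed no genotype or interaction call. Without each leukaemia in turn the count was 0 to 2 in wild-type leukaemias (0 without leukaemia 73, 2 without leukaemia 81) and 1 to 4 over both genotypes (1 without leukaemia 75, 2 without leukaemia 73 or 83). The calls over all genes moved too: in wild-type leukaemias 147 genes were called, 1 without leukaemia 73 and 662 without leukaemia 81, and over both genotypes 1580, against 503 without leukaemia 75. Between genotypes in c-kit-positive cells it fell from 1 to 0 with centred arrays, with the mean of probe sets and with the groups fitted alone, and was 0 to 2 without each leukaemia (2 without leukaemia 73, 0 without leukaemia 75, 79, 83 or 85), where 3, 1, 0 and 22 of 19152 genes were called, against 27 with all leukaemias. Over both fractions it was 0 to 1 (1 without leukaemia 73). With repeated quantile normalization the S100a4 genotype difference in c-kit-negative cells was -0.0055, and with centred arrays the S100a11 c-kit difference in wild-type leukaemias was 0.024. Without each leukaemia in turn, the genotype difference of S100a4 ran from -0.077 to 0.164 over both fractions, from -0.027 to 0.230 in c-kit-positive and from -0.160 to 0.145 in c-kit-negative cells. That of S100a13 in c-kit-positive cells ran from -0.136 to 0.026, and those of S100a9 and S100a10 in c-kit-negative cells from -0.022 to 0.444 and from -0.629 to 0.202. The c-kit differences of S100a11 and S100a13 in wild-type leukaemias ran from -0.098 to 0.098 and from -0.017 to 0.208, that of S100a9 in knock-in leukaemias from -0.014 to 0.213, and that of S100a13 over both genotypes from -0.120 to 0.033. The interactions of S100a1, S100a4, S100a6 and S100a10 ran from -0.066 to 0.188, from -0.078 to 0.359, from -0.379 to 0.167 and from -0.657 to 0.212. The 3 leukaemias per genotype limit the precision, and the causes of these changes were not tested.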
